A study of Mus musculus with 24 samples.

Results

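The secondary prosencephalon (SP), the front of the embryonic brain that forms the telencephalon and hypothalamus, was compared between mouse embryos that lack a working Tfap2b gene and their wild-type littermates, the controls. Members were all SP libraries, chosen by their labels, which gave 12 of the 24 libraries of the series, 6 from Tfap2b-/- and 6 from Tfap2b+/+ embryos at E14.5 (days of embryonic development), with 3 labelled female and 3 labelled male in each genotype. The other 12 libraries came from the remaining brain, the diencephalon, midbrain and hindbrain (DMH), of the same 12 embryos. In the mutant allele a PGK-neo cassette is inserted in an exon of Tfap2b, in every cell of the embryo, and both genotypes came from matings of heterozygous parents. The deposited values are whole-gene counts, so the cassette itself was not traced.

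AP-2 proteins are transcription factors that bind DNA as dimers and act in neural crest, skin, kidney and parts of the nervous system. Tfap2b encodes AP-2 beta, which in the embryonic brain is best known from the midbrain, hindbrain and cerebellar anlage, where it takes part in the choice between inhibitory and other neuronal fates. The comparison asked how far its loss changed gene expression in the forebrain, where the gene itself is weakly expressed.

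Few genes differed in SP. Of 16977 genes tested with edgeR's quasi-likelihood test, 1 passed an FDR under 0.2 with an absolute log2 fold change over 0.5, which is 0.00589% of the genes tested, and 0 passed an FDR under 0.05. That gene was Gm37602, a transcript model on chromosome 1 of undetermined coding status, which fell in the mutants. The unadjusted p was under 0.05 for 378 genes, 2.23% of those tested, with 159 higher (0.937%) and 219 lower (1.29%) in the mutants. Evenly spread p-values would put a share of 0.05 of the genes there. At the same thresholds DESeq2 called 11 genes and edgeR's likelihood ratio test 13. Of the 20 genes with the smallest p, 7 lay within 10 Mb of Tfap2b on chromosome 1.

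The depth allowed fairly narrow limits for most genes. Between 26.7 and 42.9 M fragments per SP library were counted on genes, and a count of 3, taken as the floor, was 0.0699 to 0.112 CPM (counts scaled to library size). Floors cover counting error only, since PCR reads are not independent molecules. Among the 14044 genes with a mean of at least 1 CPM, the median standard error of the log2 fold change was 0.10 and its 95% confidence interval reached a median of 0.22 to either side. The interval lay wholly within ±0.5 for 11967 of them, 85.2%, and within ±1 for 13826. Over all genes tested the median log2 fold change was 0.01 and the median absolute value 0.08.

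Several libraries stood apart. On the first principal component of the 500 most variable genes, male mutant 1 and male mutant 3 lay at -21.5 and -22.2, and the other 10 libraries between 1.04 and 7.57. Male mutant 1 held 74042 CPM on mitochondrially encoded genes against 18437 to 24489 CPM elsewhere, and 9.98% of its fragments did not map. Male mutant 3 held 57.4 CPM on choroid plexus markers, against 261 to 605 CPM in the other 11. Female mutant 3, which the study left out, was highest for hypothalamic factors, at 204 CPM against 103 to 176 CPM. Female control 2 carried 133 CPM of Y-linked transcripts and 0.0340 CPM of Xist, against its label, and the DMH library of that embryo also went against its labelled sex. The label was kept in the fit. Libraries of SP held 1726 to 3012 CPM of 8 telencephalic markers against 105 to 307 CPM in DMH. Hindbrain Hox genes were at or near 0 in SP, with at most 0.0627 CPM summed over 4 markers.

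Tfap2b was the first gene examined, because it checks the genotype labels. It lies on the plus strand at chr1:19208914-19238576 (GRCm38, GENCODE vM21), and its promoter is shown because the gene defines the groups:
Tfap2b promoter, chr1:19211804-19212103, plus strand, GRCm38.p6: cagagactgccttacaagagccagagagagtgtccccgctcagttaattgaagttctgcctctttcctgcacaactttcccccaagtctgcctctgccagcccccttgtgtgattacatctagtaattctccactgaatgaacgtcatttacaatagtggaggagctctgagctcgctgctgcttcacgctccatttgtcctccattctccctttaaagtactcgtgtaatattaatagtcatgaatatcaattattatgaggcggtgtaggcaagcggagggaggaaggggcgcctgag
The window runs from 250 bases before to 50 bases after a RefSeq start and has no GCCNNNGGC, the palindromic AP-2 consensus, on either strand. In SP the controls ranged from 3.47 to 4.12 CPM with a median of 3.88, and the mutants from 2.76 to 4.94 CPM with a median of 3.67. The mutants spanned the controls on both sides, and the difference of -0.06 ± 0.13 (SE) on the log2 scale was smaller than the spread (exact two-sided permutation test over 924 splits, p = 0.595, smallest possible p 0.00216). The 95% interval of the log2 fold change was -0.35 to 0.23. The level in SP therefore does not check the genotype labels.

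In DMH of the same embryos Tfap2b separated the genotypes. Controls there held 281 to 447 CPM with a median of 396, mutants 51.5 to 56.0 CPM with a median of 52.7, and the groups did not overlap. The log2 fold change in DMH was -2.84 with an adjusted p of 2.22e-08 (edgeR), one of 5 genes called there (0.0291% of 17194). The genotype effect of Tfap2b differed between regions by -2.76 ± 0.13 (SE) on the log2 scale, DMH minus SP, with an adjusted p of 1.93e-08 from a fit with the embryo as a term. Of 18455 genes, 2 were called for such a difference, 0.0108%. The other was Myl1, a muscle myosin light chain, which had 4784 counts in the DMH library of female mutant 3 and at most 16 in each other library, SP included, so that call rests on 1 DMH library.

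The other AP-2 genes lay in overlapping ranges in both genotypes. Tfap2c, the most abundant in SP, had a control range of 34.9 to 50.9 CPM and a mutant range of 37.8 to 49.1 CPM, with a log2 difference of -0.01 ± 0.10 (SE). Tfap2d, the neighbour of Tfap2b on chromosome 1, was at 9.30 ± 1.11 CPM in wild types against 9.75 ± 3.20 CPM in mutants (SD, n = 6). Tfap2e was at 3.16 ± 0.97 and 2.87 ± 0.76 CPM, and Tfap2a at 0.826 ± 0.176 and 1.01 ± 0.34 CPM. None of the 5 family members had a p under 0.05 with the 12 libraries, while without male mutant 3, the lowest for Tfap2a, that gene's log2 difference went from 0.28 to 0.44 with an unadjusted p under 0.05 and an adjusted p of 0.880 (edgeR). With the 12 libraries 2 had a positive and 3 a negative fold change, and the signs of Tfap2c and Tfap2d turned when female mutant 3 and male mutant 1 were left out.

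Genes between 5 and 10 Mb from Tfap2b held most of the nearby genes with a p under 0.05. Mcmdc2, Adhfe1 and Vxn are named here for their position, after their values were seen. Their p-values come from the same libraries that drew attention to them, so these are no independent support. The same holds for the other genes below that were picked by p. Within 10 Mb of Tfap2b, 10 of 71 tested genes had a p under 0.05, 14.1% against 2.17% (345 of 15921) on other chromosomes and the 2.23% background. Under 5 Mb the share was 5.41% (2 of 37), between 5 and 10 Mb 23.5% (8 of 34), between 10 and 20 Mb 3.61% (3 of 83), between 20 and 40 Mb 3.54% (4 of 113) and beyond 40 Mb on the same chromosome 2.03% (16 of 789). The genes went both ways, with 4 of the 10 higher and 6 lower in the mutants. Loss of Tfap2b and other differences carried on the targeted chromosome cannot be told apart in this design.

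**Figure D1:**
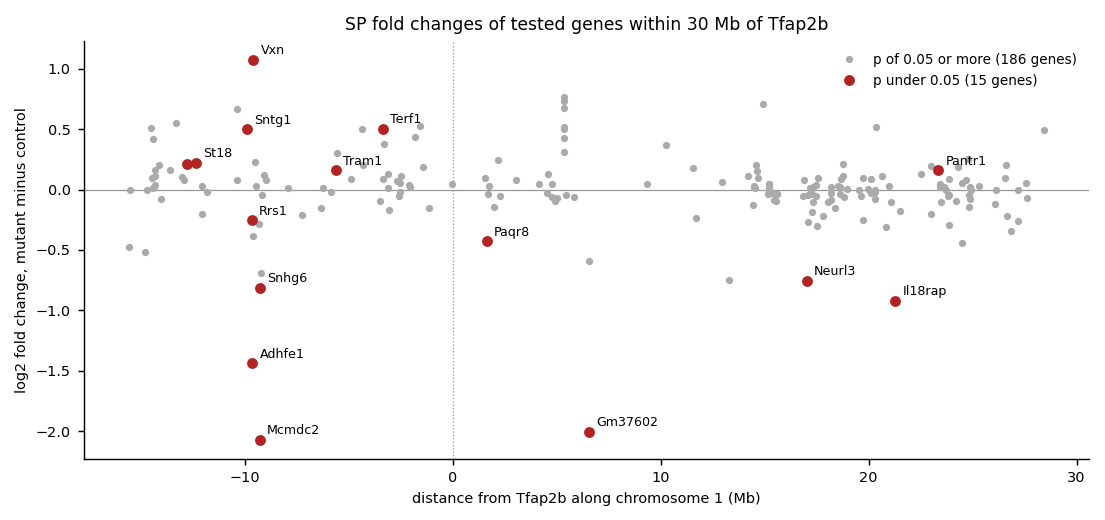
Log2 fold change in SP (mutant minus control, y axis) of the 201 tested genes within 30 Mb of Tfap2b, against distance along chromosome 1 in Mb (x axis). The 15 red points have an unadjusted p under 0.05, and the group near -10 Mb holds Vxn above 0 and Mcmdc2, Adhfe1 and Snhg6 below.

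The called gene, Gm37602, lies on the minus strand at chr1:25804097-25807406, inside Adgrb3 and on its strand. Controls ranged from 0.292 to 0.503 CPM with a median of 0.469, and mutants from 0.0704 to 0.249 CPM with a median of 0.0970. Every mutant lay below every control, and several mutants sat close to the floor of 3 counts. The log2 fold change was -2.01 ± 0.29 (SE), with an adjusted p of 0.167 (edgeR). It was -2.25 in females and -1.81 in males, and -2.29 to -1.88 with each library left out in turn. DESeq2 (adjusted p 0.00506) and edgeR's likelihood ratio test (adjusted p 2.18e-05) called the gene too. The call was lost in 11 of the 12 fits that left out 1 library, all but that without male mutant 1, with sex taken from transcripts, and with the replicate number as a block (-2.01, adjusted p 0.476, edgeR), and a minimum of 10 counts in every library left the gene untested. Adgrb3, an adhesion receptor of synapses that encloses it, was at 62.1 ± 11.2 CPM in wild types against 59.0 ± 9.1 CPM in mutants (SD, n = 6), a log2 difference of -0.06. In DMH Gm37602 was below the filter, at 0.182 to 0.496 CPM in controls and 0.0667 to 0.185 CPM in mutants.

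Snhg6, a small nucleolar RNA host gene, was the clearest difference at a higher level. It lies at chr1:9941959-9944118 on the minus strand. Controls ranged from 8.43 to 11.95 CPM with a median of 11.5, and mutants from 4.16 to 8.30 CPM with a median of 5.80. All 6 mutants were below all 6 controls, with mutants at 56.8% of the control mean. The log2 fold change was -0.81 ± 0.14 (SE), -0.78 in females and -0.89 in males. The adjusted p was 0.417 (edgeR), so it missed the threshold. It was called by DESeq2 (adjusted p 0.000482), by edgeR's likelihood ratio test (0.000705) and with no filter on low counts (0.0265). In DMH of these embryos it was -0.74, with controls at 5.12 to 8.88 CPM and mutants at 2.62 to 5.83 CPM, which overlapped.

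Mcmdc2, which encodes a meiotic MCM-domain protein, overlaps the end of Snhg6 on the opposite strand. Its controls ranged from 0.306 to 1.00 CPM and its mutants from 0.04997 to 0.411 CPM. Male mutant 2, at 0.411 CPM, was above the lowest control, and the other 5 mutants were below every control. The log2 fold change was -2.07 ± 0.36 (SE, edgeR p = 5.74e-05, adjusted p 0.417, exact permutation p = 0.00433). DMH gave -3.004. Reads were counted by strand, and with strand ignored the number of called genes was also 1, Gm37602. Without male mutant 2, Mcmdc2 was called, at -2.63 with an adjusted p of 0.0622 (edgeR), and Gm37602 was not. DESeq2 (adjusted p 0.00282), edgeR's likelihood ratio test (3.27e-05) and the fit with no filter on low counts (0.0265) called Mcmdc2 too.

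Adhfe1 and Vxn, side by side on the plus strand at chr1:9547948-9580673 and chr1:9601199-9627143, had fold changes of opposite sign. Adhfe1, a mitochondrial alcohol dehydrogenase, ranged from 0.487 to 1.68 CPM in wild types against 0.235 to 0.693 CPM in mutants, a log2 difference of -1.44 ± 0.31 (SE, edgeR p = 0.000376, exact permutation p = 0.00649). Vxn, which encodes vexin, a protein linked to neurogenesis, ranged from 17.5 to 40.6 CPM in wild types against 36.9 to 83.2 CPM in mutants, a log2 difference of 1.077 ± 0.21 (SE, edgeR p = 0.000176, exact permutation p = 0.00433). For both genes 1 library, male mutant 2, lay within the control range and the other 5 mutants lay outside it. The log2 fold change of Vxn was 0.88 in females and 1.23 in males, and 0.25 in DMH. Both genes missed the adjusted threshold here and were called by DESeq2, edgeR's likelihood ratio test and one fit of all 24 libraries, where the adjusted p was 0.0432 for Vxn and 0.182 for Adhfe1 (edgeR).

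Terf1, which encodes a protein of telomeric DNA, had all mutants above all controls. Controls ranged from 14.99 to 22.52 CPM and mutants from 22.54 to 38.1 CPM, so that the groups met without overlap, and male mutant 1 was highest. The log2 difference was 0.51 ± 0.14 (SE, adjusted p 0.992, edgeR). In DMH it was 0.43 and the groups did not overlap there either, at 8.69 to 13.1 CPM in controls and 13.4 to 16.2 CPM in mutants.

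Paqr8, a membrane progestin receptor gene at chr1:20890606-20939650, was lower in SP with a smaller fold. Its controls ranged from 45.0 to 68.0 CPM and its mutants from 36.2 to 51.2 CPM, and only female mutant 3 lay within the control range. The log2 difference was -0.43 ± 0.10 (SE, edgeR p = 0.00109, exact permutation p = 0.00649). It was -0.23 in females, -0.66 in males and -0.08 in DMH. Without female mutant 3 and male mutant 1 it was called, at -0.51 with an adjusted p of 0.1995 (edgeR). Its first promoter is shown because it was one of 2 of the 13 genes with a p under 0.05 within 20 Mb that had a window in the RefSeq table, and because it holds the AP-2 consensus, printed in capitals:
Paqr8 promoter, chr1:20890298-20890597, plus strand, GRCm38.p6: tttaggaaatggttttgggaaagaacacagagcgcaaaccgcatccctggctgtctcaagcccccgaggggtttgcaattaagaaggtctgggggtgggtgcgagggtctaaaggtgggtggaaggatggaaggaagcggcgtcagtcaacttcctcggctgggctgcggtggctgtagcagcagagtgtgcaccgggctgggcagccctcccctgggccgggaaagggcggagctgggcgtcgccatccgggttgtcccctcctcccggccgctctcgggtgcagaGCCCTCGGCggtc
The match starts at base 288 of the window. GCCNNNGGC is its own reverse complement, so both strands were searched at once, and 16.6% of the 32851 windows in the table hold it. A second Paqr8 start had none. Counted per gene rather than per window, 28.4% of the 11864 tested genes with a window hold the consensus in any of their windows.

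**Figure D2:**
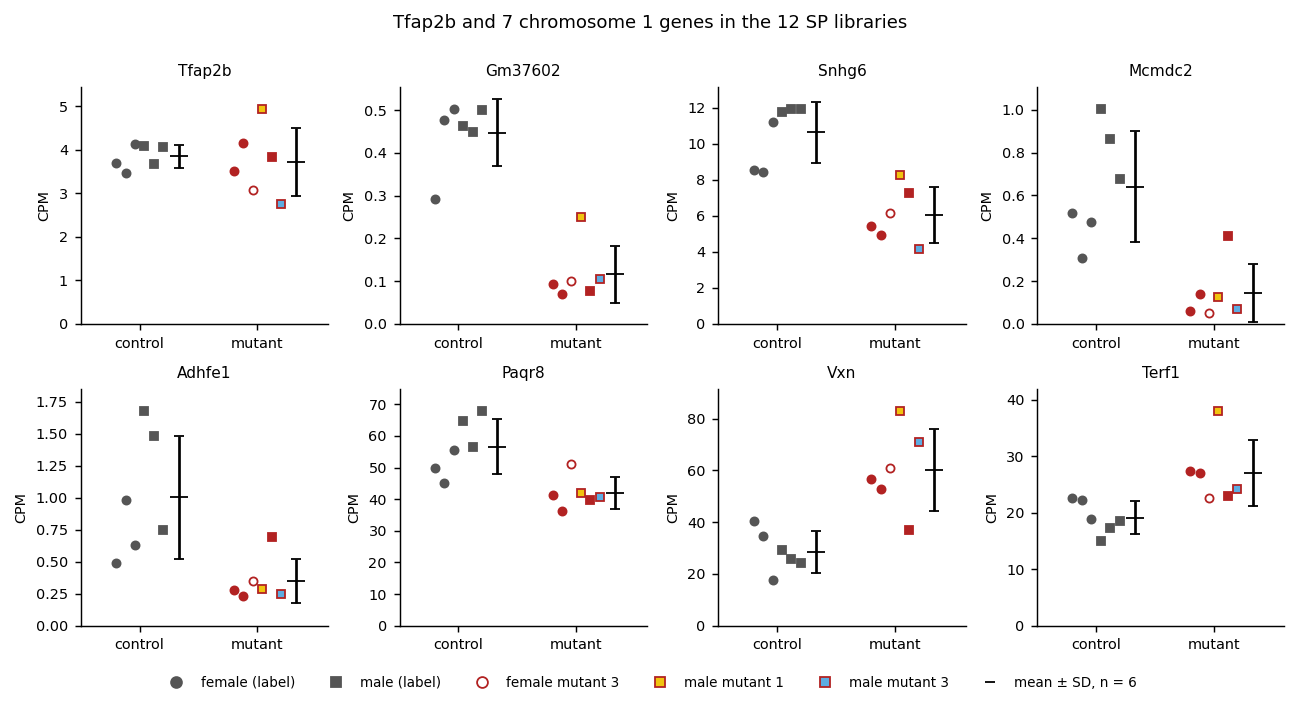
CPM (y axis, from 0) of Tfap2b, Gm37602 and 6 further chromosome 1 genes in the 6 control and 6 mutant SP libraries, with the mean ± SD (n = 6). Circles are libraries labelled female and squares male, an open circle marks female mutant 3, and yellow and blue squares mark male mutants 1 and 3. Tfap2b overlapped between genotypes, and for Gm37602, Snhg6 and Terf1 all mutants lay on one side.

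Complete separation of the genotypes was rare. All 6 mutants exceeded all 6 controls in 9 genes (0.053% of 16977) and lay below them in 11 (0.0648%), and 3 of these 20 genes were within 10 Mb of Tfap2b. A random split of the libraries separates a single gene fully, on either side, with a probability of 0.00216. The counts are not above what random splits would give, so separation alone is no evidence of a difference. Higher in every mutant were Ednrb, the endothelin receptor B, at 89.3 ± 3.5 CPM in wild types against 99.4 ± 5.5 CPM in mutants (SD, n = 6), and Aldh1a3, a retinoic acid synthesis enzyme, at 6.30 ± 0.77 and 7.77 ± 0.69 CPM. Usp51, Prkab1 and Medag were on that side too, with log2 differences of 0.27, 0.13 and 0.42, beside Terf1. An unnamed gene model, which the rule for named genes leaves out unless called, was named after its values were seen, Gm21168, a processed pseudogene with 3 of 6 controls at 0. Its controls ranged up to 0.3245 CPM and its mutants from 0.3337 to 1.12 CPM, with a log2 difference of 3.23 ± 0.68 (SE, adjusted p 0.946, edgeR), a fold that depends on the prior count. DESeq2, the likelihood ratio test and the fit of 24 libraries called it.

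Lower in every mutant beside Gm37602 and Snhg6 was Cpz, a carboxypeptidase that binds Wnt proteins, with controls at 0.510 to 0.900 CPM and mutants at 0.0415 to 0.493 CPM. Its log2 difference was -1.53 ± 0.40 (SE), -0.77 in females and -2.71 in males. Sytl3 and Apobr were also low genes, with differences of -0.87 and -0.70. Stxbp2, which takes part in vesicle release, was at 15.2 ± 0.5 CPM in wild types against 13.2 ± 0.9 CPM in mutants (SD, n = 6). Setd4, Ptgs1, Vwa3a and Rhbdf1 had log2 differences of -0.27, -0.41, -0.39 and -0.26, and Rhbdf1 was at -0.17 without male mutant 1. None of the genes in this group other than Gm37602 passed the adjusted threshold in the main fit. Cpz was called by edgeR's likelihood ratio test (adjusted p 0.0888) and in one fit of all 24 libraries (adjusted p 0.106, edgeR). In DMH the log2 difference was 0.29 for Cpz and 0.57 for Apobr, while Stxbp2, Setd4, Ptgs1, Vwa3a and Rhbdf1 were negative there. Among the 20 genes 13 had a promoter in the RefSeq table, and 1 of the 13, Ednrb, had GCCNNNGGC there, against 28.4% of the 11864 tested genes with a window.

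Fold changes in females gave little guide to those in males. Fold changes were fitted in each labelled sex alone, 3 against 3 with no shared library. The labelled female controls include female control 2, which went against its label, so the female fit is not of 1 sex by transcripts. In these fits 46.0% of the genes had the same sign in both. Of the 378 genes with a p under 0.05 in the joint fit, 368 had the same sign in both sexes. Picking genes by p on the same libraries favours a shared sign, so for such genes it is no evidence of consistency. The correlation across genes, which are not independent, was r = 0.02. Of 322 genes with a p under 0.05 in females, 142 had the same sign in males, 44.1%. Of 635 such genes in males, 253 had the same sign in females, 39.8%. Neither sex had a called gene, and a test of the difference between sexes called 0 of 17287 genes (0%), with 875 at an unadjusted p under 0.05. Without female mutant 3 and male mutant 1 the share of genes with the same sign was 56.0%.

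**Figure D3:**
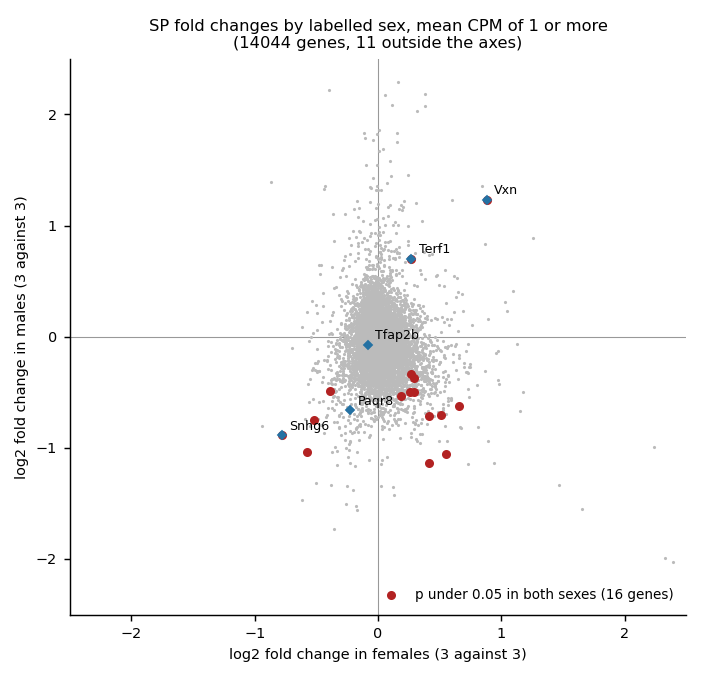
Log2 fold change in females (x axis) against males (y axis) for 14044 genes with a mean of at least 1 CPM, 11 of them outside the axes of ±2.5. Red points are the 16 genes with a p under 0.05 in both sexes, blue diamonds are named genes, and Snhg6, Vxn and Terf1 have the same sign on both axes.

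Inhibitory neurons make GABA with the enzymes GAD67 and GAD65, from Gad1 and Gad2, and load it with the transporter from Slc32a1. Gad1 ranged from 35.8 to 76.2 CPM in wild types against 44.5 to 57.8 CPM in mutants, with a log2 difference of 0.00 ± 0.15 (SE). Gad2 ranged from 81.9 to 141 CPM in wild types against 123 to 183 CPM in mutants, with a difference of 0.27 ± 0.12 (SE), which had p = 0.0478 in edgeR against 0.0909 in the exact permutation test. By the same exact permutation test p was 0.864 for Gad1 and 0.524 for Slc32a1. Slc32a1 was at 36.9 ± 6.1 CPM in wild types against 40.05 ± 8.03 CPM in mutants (SD, n = 6). The sign of Gad1 was not determined, at -0.01 with RLE size factors, and the 95% interval of its log2 fold change ran from -0.32 to 0.33. Of the 7 GABA genes tested, 1, Gad2, had a p under 0.05, beside 0.937% of all genes tested that were higher at that p, and none was called. Gad2 no longer had one without male mutant 1, male mutant 3, female mutant 3 or male control 3, each left out alone, and without female mutant 3 the transporter gene Slc6a11 had one, at -0.26.

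Subpallial factors are transcription factors of the ventral forebrain, where these neurons are born. Of 20 such genes 19 had a positive fold change, with a median of 0.25 against 0.01 over all genes, and 5 had a p under 0.05, all higher, beside 0.937% of all genes tested. Dlx5, Six3, Sp9 and Ebf1, all transcription factors, were among them. Dlx5 ranged from 36.6 to 59.9 CPM in controls and 53.6 to 99.2 CPM in mutants. The summed level was 1402, 1423, 1244, 1453, 1392 and 971 CPM in the controls and 1455, 1462, 1335, 1831, 1509 and 1626 CPM in the mutants. Male control 3 was lowest and male mutant 1 highest, and the genotypes overlapped. The median was 0.02 in females and 0.44 in males. Without male mutant 1 none of the 20 had a p under 0.05, and without male mutants 1 and 3 none had, with a median of 0.15. Without male control 3 there was 1, with a median of 0.12. Without female mutant 3 there were 7, where 474 of all genes were higher at that p against 159 with the 12 libraries. Without female mutant 3 and male mutant 1 there were 5, with a median of 0.25, beside 5.02% of all genes higher.

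All 24 cell cycle genes tested had a positive fold change, with a median of 0.13, yet none had a p under 0.05. Top2a, the mitotic topoisomerase, was at 520 ± 64 CPM in wild types against 583 ± 64 CPM in mutants, and Mki67, a proliferation marker, at 402 ± 61 and 498 ± 173 CPM (SD, n = 6). The summed level of the 24 genes was 3240, 3534 and 3465 CPM in female controls and 2449, 2665 and 2687 CPM in male controls. Female mutants held 3375, 3967 and 2784 CPM and male mutants 3249, 3466 and 2990 CPM. So male mutants were all above male controls, while the females overlapped, and female mutant 3 was the lowest mutant. The median fold change was -0.07 in females, with 21 of 24 below 0, and 0.29 in males, with 24 of 24 above 0. Without female mutant 3, 13 of 24 had a p under 0.05, and without female mutant 3 and male mutant 1, 18 of 24, all higher, with a median of 0.23. Over all genes 2.23% had a p under 0.05 with the 12 libraries and 9.02% (1537 of 17049) with those 10, 5.02% higher. Without female mutant 3 alone, 474 of all genes were higher and 387 lower at that p. Without male mutant 1 alone, and without male mutants 1 and 3, 0 of 24 cell cycle genes had such a p. No cell cycle gene was called in any of these sets. Radial glia genes gave 2 of 20 with a p under 0.05 in all 12 libraries, Id4 and Sox1, 11 of 20 without female mutant 3 and male mutant 1, and 1 of 20 without male mutants 1 and 3. In that last set 165 of all genes were higher and 181 lower at that p.

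Other identities of the region showed no called gene. Of 20 pallial factors, which mark excitatory cortical neurons, 14 were positive and 6 negative with a median of 0.02, and none had a p under 0.05. Without male mutant 1, 8 were positive and 12 negative. Hypothalamic factors gave 13 positive and 2 negative with a median of 0.11, 0.31 in females and -0.31 in males, and none had a p under 0.05. Female mutant 3 decided that direction, since without it 4 were positive and 11 negative, with a median of -0.34. That library also held 182 CPM of diencephalon and midbrain markers, 162 CPM of it Tcf7l2, and male control 1 held 164 CPM, against 18.8 to 62.1 CPM in the other 10. Their part in the hypothalamic values was not tested. Neuronal differentiation genes gave 17 positive and 3 negative, with a median of 0.10, against 12 and 8 with a median of 0.0079 without male mutant 1, and 8 and 12 with a median of -0.03 without female mutant 3 and male mutant 1. Of 22 patterning signals of the telencephalon 10 were positive, 15 without male mutants 1 and 3. Among the 22, 1 had a p under 0.05, the Wnt modulator Sfrp2 at 0.16 ± 0.07 (SE), beside 0.937% of all genes tested that were higher at that p. Of 17 hypoxia and glycolysis genes 15 were negative, with a p under 0.05 for Vegfa, the vascular growth factor, at -0.20 ± 0.08 (SE). Over all genes tested 1.29% were lower at that p.

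Markers of choroid plexus, vessels and microglia were mostly negative. All 13 choroid plexus markers had a negative fold change, with a median of -0.50, and none had a p under 0.05. Their sum ranged from 346 to 605 CPM in wild types against 57.4 to 460 CPM in mutants, the lowest being male mutant 3. Without male mutants 1 and 3, the median was -0.11 and 11 of 13 were negative. Of 15 endothelial markers 14 were negative, with p under 0.05 for Esm1 (-0.86) and Cldn5 (-0.26), and of 12 microglial markers 11, with 1, Tyrobp (-0.27), beside 1.29% of all genes tested that were lower at that p. Without male mutants 1 and 3, 9 endothelial markers were positive and 6 negative, with a median of 0.02, while 11 of 12 microglial markers were still negative, with a median of -0.07. None of either list then had a p under 0.05. In bulk tissue, fewer cells of a type and less RNA per cell cannot be told apart. The part of the non-neural tissue in the other differences was not tested. Meningeal markers summed to 551 to 743 CPM in controls, and in mutants to 185 CPM in male mutant 3 and 612 to 798 CPM in the other 5.

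The 3 gene models that hold ribosomal RNA sequence, Mir6236, CT010467.1 and Gm42418, were examined after their values were seen. Their sum was 4410 to 13445 CPM in controls and 10980 to 23085 CPM in mutants, and 3 of 3 had a p under 0.05, all higher, beside 0.937% of all genes tested. The log2 difference was 0.86 for Gm42418. Libraries were made from polyadenylated RNA. Replication-dependent histone genes, whose messages mostly lack a poly(A) tail, gave 4 of 32 with a p under 0.05, all higher, beside 0.937% of all genes tested, with a median of 0.25. All 15 mitochondrially encoded genes had a positive fold change, with a median of 0.48, which was 0.01 without male mutant 1, and none had a p under 0.05. Hist1h1e, a linker histone, was at 1.17 ± 0.42 CPM in wild types against 2.06 ± 0.77 CPM in mutants (SD, n = 6).

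**Figure D4:**
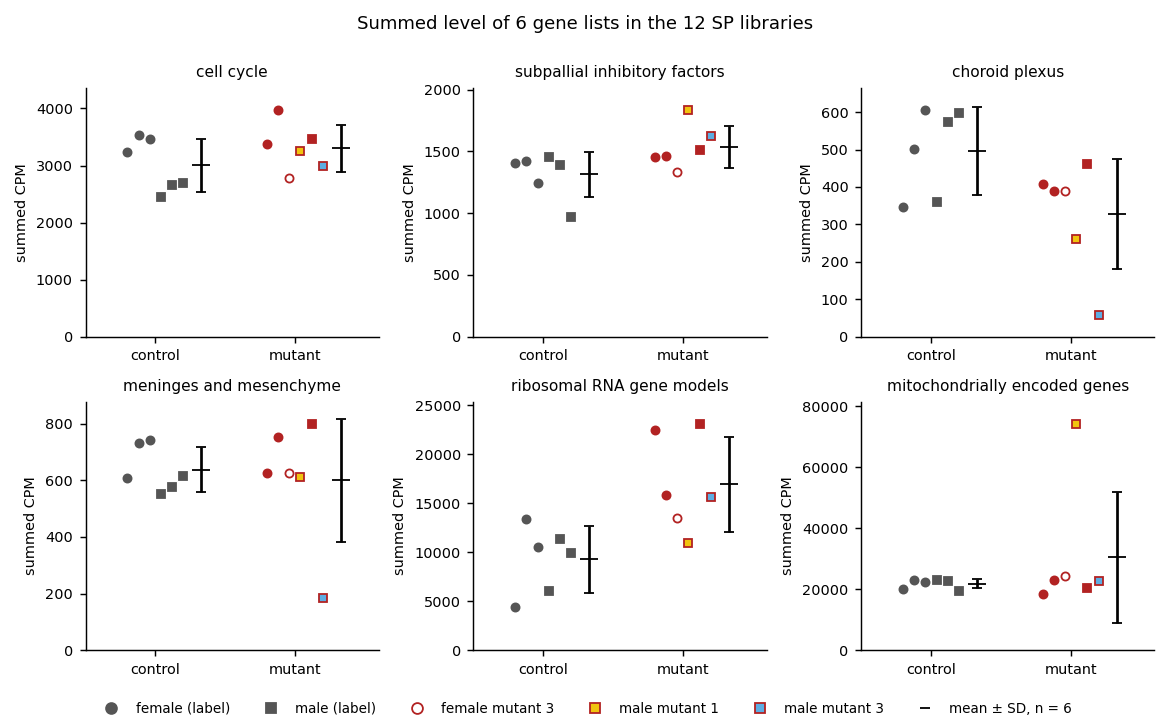
Summed CPM (y axis, from 0) of 6 gene lists in each SP library, with the mean ± SD (n = 6) per genotype and the symbols of the plot of chromosome 1 genes. Male mutant 1 stands out for mitochondrially encoded genes at 74042 CPM and male mutant 3 for choroid plexus at 57.4 CPM, and the genotypes overlap in all 6 lists.

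Some large folds were set by a few embryos. Atp6v0c-ps2, a processed pseudogene among genes called earlier in SP on these samples, had 22.02, 12.6 and 11.9 CPM in male control 1, female control 3 and male control 2 respectively. The other 3 controls held 0.680 to 0.875 CPM and the 6 mutants 0.249 to 0.769 CPM. Its log2 difference was -3.76 ± 0.87 (SE), with an edgeR p of 0.000932, an adjusted p of 0.992 and an exact permutation p of 0.00433. Gm9825, another processed pseudogene, was high in the same 3 control embryos at 19.1 to 35.3 CPM, and at 0.747 to 1.504 CPM in the other 9. Both were high in the DMH libraries of those 3 embryos too, where Gm9825 was at 14.8 to 31.3 CPM against 0.540 to 1.04 CPM in the other 9. Tmem181c-ps followed, at 1.64 to 4.86 CPM in those 3 and 0.103 to 0.550 CPM elsewhere. Of the 8 genes called earlier, 5 had a p under 0.05 here, all lower, which is no independent evidence since they were chosen on these libraries. Esm1 and Cpz were 2 of the 5, and Cdhr1 at -0.41 and Gm20186 at 0.26 were not. With a single library left out Cdhr1 ranged from -0.66 to -0.29 and Gm20186 from 0.12 to 0.34.

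How many genes had an unadjusted p under 0.05 depended on which embryos were counted. With each library left out in turn, the number with a p under 0.05 ranged from 75 to 474 higher and from 146 to 409 lower. The 474 higher genes came without female mutant 3, with 387 lower, and no gene was called. Without male mutant 1 alone, 151 were higher and 270 lower, and Gm37602 was called with an adjusted p of 0.0270 (edgeR). Without both, 856 were higher and 681 lower, and 3 genes were called, Gm37602 at -2.36, Snhg6 at -0.96 and Paqr8 at -0.51, all on chromosome 1 and all lower.

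**Figure D5:**
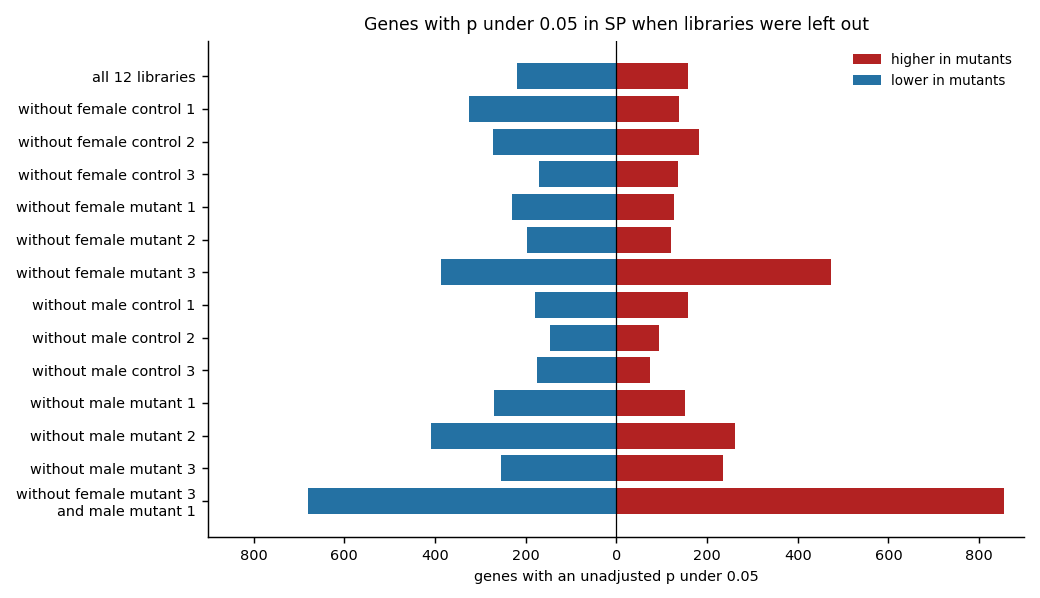
Number of genes with an unadjusted p under 0.05 (x axis) that were higher (red, right) or lower (blue, left) in mutants, with all 12 SP libraries and with the libraries named on the y axis left out. Leaving out female mutant 3 raised the number of higher genes from 159 to 474, and leaving out male mutant 1 as well raised it to 856.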

How the data were processed

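Stranded poly(A) RNA-seq libraries were made from SP and DMH of each embryo. Per the labels, the authors deposited raw counts per gene from STAR 2.6.1d after trimming with cutadapt 2.4 (builds GRCm38.p6 and mm10 in the submitters' processing notes). The reverse-strand counts were used here, with symbols and coordinates from GENCODE vM21, matched exactly for 53229 of 54446 gene IDs. Genes were filtered with filterByExpr, TMM-normalised and tested with edgeR 4.0.16 (quasi-likelihood, robust) in R 4.3.3, with labelled sex as covariate. Calls needed an FDR below 0.2 plus a log2 fold change beyond ±0.5. CPM are TMM-normalised within each region. DESeq2 1.42.0 was an alternative. Single values were tested by exact two-sided permutation. P-values measure the spread between embryos.

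The members and gene lists were chosen with earlier results of these data known. Named genes were the AP-2 genes, called genes, the 10 genes per direction with the smallest p among those without overlap, list members with a p under 0.05 (up to 4 per list), GABA genes, genes called earlier, genes called for a region or sex difference, and unnamed gene models (Gm or Rik) only where called now or earlier. Tested on simulated counts of 16977 genes for SP mutant versus control, 90 of 100 genes changed by a log2 fold of 1 and 99 of 100 changed by 2 were recovered, with 14 false calls. All of these genes were changed in the same simulation, which eases the FDR threshold, and no simulated library stood apart. The recovery of only a few changed genes was not tested. Among SP libraries of the same labelled sex and genotype none were duplicates, with a lowest chi-square per gene of 9.62. Other pairs were not compared. Comparisons of the authors' own were not used. Values of some genes that met the rule for named genes are not reported here.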

Additional observations from a re-analysis of the deposited data

Results flagged for a closer look

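Of 92 groups of 6 SP libraries examined, 17 had a library far from the others of its genotype, with a gap over 0.625 of the range, and chance gives about 1 in 20. Male mutant 3 was high for GABA genes (summed CPM 496, others 418 to 437) and low for meningeal markers (185, others 612 to 798), surface ectoderm (3.57, others 8.99 to 12.1) and Tfap2a (0.350 CPM, others 0.9745 to 1.29). Male mutant 1 was high for mitochondrially encoded genes (74042), olfactory bulb genes (1743, others 1365 to 1455), Terf1 (38.1 CPM, others 22.5 to 27.4) and Gm37602 (0.249 CPM, others 0.0704 to 0.105). Female mutant 3 was high for hypothalamic factors (204, other mutants 106 to 141) and sensory ganglion genes (63.0, others 47.0 to 52.5). Male mutant 2 was high for Mcmdc2 (0.411 CPM, others 0.04997 to 0.141) and Adhfe1 (0.693 CPM, others 0.235 to 0.350). Among controls, male control 3 was high for pallial factors (4292, others 3446 to 3762) and olfactory bulb genes (1572, others 1390 to 1452). Male control 1 was high for diencephalon and midbrain genes (769, others 605 to 658). Female control 3 was low for neuropeptide precursors (74.7, others 83.5 to 87.7), and female control 1 was low for Gm37602 (0.292 CPM, others 0.449 to 0.503). The genotype effect differed between DMH and SP for Tfap2b, by -2.76 on the log2 scale, and for Myl1, by 7.62, where 1 DMH library held 4784 counts. The causes were not tested.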

How the results depend on the processing

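With 1 gene called in SP, no filter on low counts gave 3 calls, with 356 higher and 464 lower at p under 0.05 and 27 genes below in all mutants. A minimum of 10 counts in every library gave 0 calls and 102 higher. Sex from transcripts gave 0, an FDR under 0.05 gave 0, the likelihood ratio test 13 and DESeq2 11. One fit of 24 libraries gave 5, with 325 higher, 392 lower and 18 below. Without female mutant 3 and male mutant 1 there were 3, with 856 higher, 681 lower, 66 above and 95 below, 1 gene for genotype by sex, 1 for genotype by region and 56.0% of signs shared between sexes. Without male mutants 1 and 3, chosen after seeing the data, there were 2, with 65 above and 68 below. Leaving out each library in turn gave 0 to 1 calls, 75 to 474 higher, 146 to 409 lower, 12 to 34 above and 18 to 43 below. Fewer libraries make full separation easier by themselves, so the counts above and below cannot be compared across sets of different size. The causes were not tested.

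The replicate number as a block gave 0 calls and 17 genes below in all mutants. Same-numbered libraries correlated at 0.0221 to 0.202, not above 0.1 in every pair, so the numbers were not taken as pairs, although each of the 6 mutants correlated best with its own number. Without the embryo as replicate block, genotype by region gave 1 call.

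With 1 library left out Tfap2b ranged from -0.15 to 0.013, turning without male mutant 3, Tfap2e from -0.24 to 0.015, Tfap2c from -0.080 to 0.046, Tfap2d from -0.086 to 0.13 and Gad1 from -0.090 to 0.12. The Gad1 log2 fold change in SP was -0.00505 with RLE size factors, -0.0144 with no filter, -0.00921 with a minimum of 10 counts, -0.00734 in one fit of 24 libraries, -0.00520 with DESeq2, -0.023 without the sex term and -0.040 without female mutant 3 and male mutant 1. Without those 2 libraries Tfap2c was 0.050 and Tfap2d -0.038, and without male mutants 1 and 3 they were 0.0010 and -0.19. Of 1505 values of 64 named genes under the alternatives, 1439 kept their direction and side of the threshold, 29 gained it, 13 lost it and 24 reversed. Genes near the floor of 3 counts, Gm37602 and Mcmdc2 among them, are limited by depth.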
